A study of Pan troglodytes with 38 samples.

Results

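RNA from 38 post-mortem hearts of chimpanzees (Pan troglodytes) was extracted in 2 periods, and the expression of functional gene classes was compared between them. The members are hearts, chosen by the extraction date in the study's own sample table. A single batch dated 10/10/18 holds 21 hearts, called the 2018 hearts below, and 4 batches dated 6/7/16, 6/8/16, 6/14/16 and 6/22/16 hold 17, called the June hearts, so all 38 hearts of the series entered the comparison. The same comparison was made among the 21 hearts that came from the Yerkes primate center, 12 of them extracted in 2018 and 9 in June. The study itself asked how variable gene expression is within human and chimpanzee populations, with 1 poly(A)-selected RNA library from each heart, and GEO's labels put all the hearts in 1 group.

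The June hearts came from 10 females and 7 males, aged 10 to 55 years, and the 2018 hearts from 12 females and 9 males, of whom 17 have a known age, between 15 and 57 years. Beside the Yerkes hearts, 5 June hearts and 8 of 2018 came from the center named SNPRC, and all 8 of the latter carry a note on a virus (hepatitis B or C infection, or exposure to HIV with negative tests), which no June heart does. The remaining 4 hearts came from New Iberia and MD Anderson in June and from the Little Rock zoo in 2018. RNA integrity (RIN, higher for more intact RNA) had a median of 6.2 in June and 5.4 in 2018, with a wider range in 2018. By the sample table every June library had been published and was sequenced again, whereas those of 2018 were new, but the study's methods count fewer libraries as sequenced again than this table does. The labels name Trizol for the extraction, the methods name kits or Trizol, and neither says which was used at which date. Extraction date, library preparation and the animals themselves therefore cannot be told apart. By the series' description each library is of a different individual. Some are relatives by the study's methods, and relatedness was not modelled. Hearts 554 and 554_2 share a number. The correlation of their deviations was 0.354, rank 35 among 210 pairs, a value that cannot tell whether they come from the same animal.

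Some background helps to read the classes. Serine/arginine-rich (SR) proteins select splice sites and are phosphorylated by CLK kinases, and many of their own genes, like those of other RNA-binding proteins, keep an intron in a share of their transcripts, which then stay in the nucleus. Ribosomal, proteasomal and respiratory chain genes make abundant mature cytoplasmic mRNA. Immediate early genes and heat shock genes are transcribed within minutes of a stimulus. A piece of heart holds cardiomyocytes beside fibroblasts, endothelium, pericytes, resident macrophages and fat. The gene counts used here come from annotated exons, so intron retention itself was not measured.

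Total gene counts ran from 43892814 to 132478050 a heart, with medians of 63749322 in June and 63528761 in 2018, and differed between years by less than the spread between hearts (two-sided permutation p = 0.451). The 4 libraries 295, 389, 476 and 503 of 2018 were deeper than any June heart. Reads from the 13 genes encoded in mitochondrial DNA made up 17.2%, 28.7% and 34.98% (lowest, median, highest) of a library in June and 21.5%, 32.7% and 60.1% in 2018. This share was higher in 2018 by 9.14 percentage points (permutation p = 0.0025, adjusted p = 0.015 over 12 tests), and 5 hearts of 2018 stood highest (537, 558, 529, 4X0339 and Little_R). In the Yerkes hearts the difference was 8.48 points (exact permutation p = 0.0503, adjusted p = 0.151). In all hearts but 537 and Little_R it was 7.32 points (permutation p = 0.00858, adjusted p = 0.0515). RIN was lower by 0.628 in 2018, a difference within the spread between hearts (permutation p = 0.23). TNNT2, the cardiac troponin T gene, was at 1915 CPM (the count relative to the TMM-scaled library total) or more in every heart, but June heart 549 had little ventricular MYH7 and stood apart, as did Little_R, 537 and 495 of 2018, whose sarcomere genes were low. Some of the results below are given with and without some of these hearts.

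Of 15392 genes tested, 1713 were higher in 2018 (11.1%) and 720 were lower (4.68%) at an adjusted p under 0.05 (edgeR quasi-likelihood test with sex as covariate, Benjamini-Hochberg adjustment), hereafter "called". The higher side was also larger in size. The median log2 fold change was 0.94 among the genes called higher and -0.48 among those called lower, and 800 genes were more than 2-fold higher against 105 more than 2-fold lower, while the median over all genes was -0.01. With limma-voom, which the study used, 1068 genes were higher and 738 lower, so the share of called genes that were higher was 59.1% in place of 70.4%. Within the Yerkes hearts 230 of 15313 genes were called higher (1.5%) and 18 lower (0.118%). Of the 230, 226 were also called higher in all hearts (98.3% of the Yerkes calls and 13.2% of the 1713), but both comparisons share their hearts. The Yerkes count rested on few libraries: leaving out 1 heart at a time gave 36 calls (without 558) to 410 (without 476), and no gene was called among the 14 Yerkes hearts within the RIN range of the June hearts, of which 5 were of 2018 (1025 genes had an unadjusted p under 0.05; other tools were not run on this subset).

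Genes known for retained introns were the class with the largest share of calls. Of 61 tested, 40 rose and 1 fell in 2018, with a median log2 fold change of 0.57, and 55 of 61 had a positive fold change, against 48.9% of all genes. Within Yerkes 15 rose and none fell, with a median of 0.52, and again 55 of 61 were positive, against 50.9% of all genes. The list holds splicing factors beside genes of other functions, and among its 34 members that are on none of the splicing lists 21 rose, 1 fell and the median was 0.51 (8 and none in the Yerkes hearts, with a median of 0.45). The calls were thus not confined to members of the splicing lists. All of these lists were written with earlier results of these data known.

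LENG8 (identifier ENSPTRG00000011459) had the smallest p of the class. It was measured at 20.7, 31.7 and 65.5 CPM (lowest, median, highest heart) in June and 37, 136.9 and 366.3 CPM in 2018. Of the hearts of 2018, 14 lay above every June heart, and the years overlapped in the others. The log2 fold change was 2.22 ± 0.275 (SE, adjusted p = 1.55e-06), and 2.35 ± 0.418 in the Yerkes hearts (adjusted p = 0.0145), where 11 of 12 hearts of 2018 were above all June hearts. DDX17, an RNA helicase, and OGT, the enzyme that adds GlcNAc to nuclear and cytoplasmic proteins, were chosen for display after their values were seen. DDX17 was between 83.7 and 211.6 CPM in June (median 144.4) and between 148.8 and 555.6 in 2018 (median 265), with 18 of 21 hearts above the June range (log2 fold change 1.03 ± 0.158, adjusted p = 2.43e-05; Yerkes 1.20, adjusted p = 0.0127). OGT had medians of 86.4 and 144.8 CPM (log2 fold change 0.88 ± 0.151, adjusted p = 9.09e-05; Yerkes 0.75, adjusted p = 0.0229). OGA, which removes the same modification and is also known for a retained intron, had medians of 108.8 and 148.5 CPM (log2 fold change 0.43, adjusted p = 0.0093) and did not pass in the Yerkes hearts (adjusted p = 0.194).

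The exception was RBM3, a cold-induced RNA-binding protein. RBM3 was at 21.5, 80.4 and 269.9 CPM in June and at 11.2, 40.9 and 168.1 in 2018. In 2018, 5 hearts lay below the June range and the others within it. Its log2 fold change was -1.08 ± 0.309 (adjusted p = 0.0142; Yerkes -1.29, adjusted p = 0.0844). CIRBP, the other cold-induced gene of this kind, had a log2 fold change of -0.29 (adjusted p = 0.278) and was chosen after its values were seen.

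**Figure D1:**
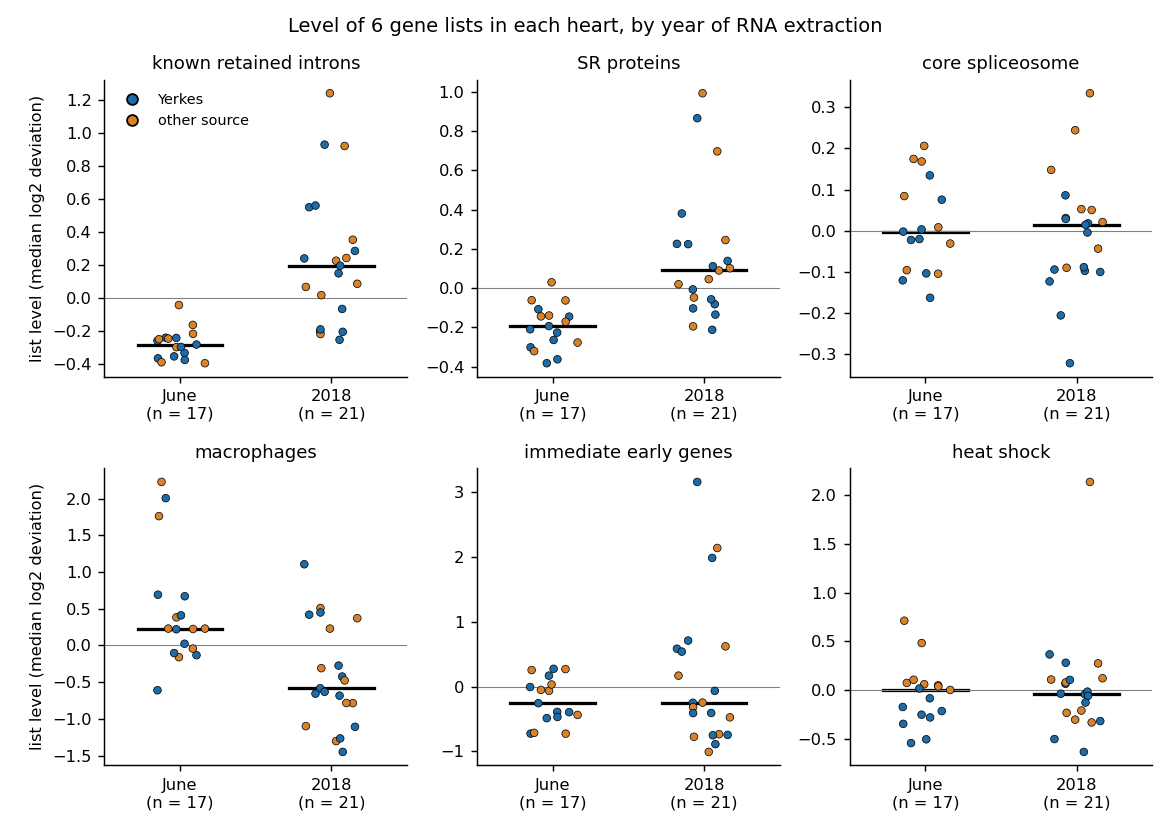
Level of 6 gene lists in each heart (the median over tested members of log2(CPM + 0.5) minus the gene's mean over hearts), with points for single hearts, colored by source, and bars for the median of each year. The retained-intron and SR protein lists lie higher in most hearts of 2018, the core spliceosome runs from -0.16 to 0.21 in June and, more widely, from -0.32 to 0.33 in 2018, the macrophage list is lower, and the stress lists have similar medians with a few high hearts in 2018.

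SR proteins and their relatives moved with the retained-intron genes. Of 41 tested, 22 rose and none fell (median log2 fold change 0.41), and 8 rose in the Yerkes hearts (median 0.35). The lists share 14 genes, of which 12 rose (median 0.73), while among the 27 SR genes not known for a retained intron 10 rose (median 0.27). SRRM2, a scaffold of nuclear speckles, was at 160, 182.5 and 279 CPM in June and at 203, 403 and 751 CPM in 2018. In 2018, 15 hearts exceeded all June hearts (log2 fold change 1.10 ± 0.152, adjusted p = 6.72e-06; Yerkes 1.05, adjusted p = 0.0223). PNISR, an SR-rich protein that interacts with splicing factors, was at 22.3, 31.1 and 37 CPM and then 31.1, 61.9 and 117.6 CPM. Of the 21 hearts of 2018, 18 were above the highest June heart (log2 fold change 1.04 ± 0.15, adjusted p = 9.69e-06; Yerkes 0.89, adjusted p = 0.0274). The Yerkes call was lost without 558 or 623 for SRRM2 (adjusted p up to 0.0528) and without any of 5 hearts (462, 495, 549, 558, 623) for PNISR (adjusted p up to 0.0627).

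Among the SR protein kinases and L-type cyclins, 6 of 13 rose and none fell (median 0.34), with 1 in the Yerkes hearts. CCNL2, a cyclin that partners splicing-related kinases, went from a median of 25.6 CPM in June (range 18.7 to 33.8) to 79 CPM in 2018 (24.5 to 207.9). It exceeded all June hearts in 14 hearts (log2 fold change 1.71 ± 0.255, adjusted p = 1.54e-05; Yerkes 1.62, adjusted p = 0.0255, lost without 317, 462, 495, 558 or 623, up to 0.0616). CLK2, a kinase of SR proteins, went from 11.9 to 17.97 CPM in the median (log2 fold change 0.89, adjusted p = 0.000964; Yerkes 0.88, adjusted p = 0.0907).

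In the rest of the splicing apparatus the medians were near that of all genes. Of 73 genes of the core spliceosome 4 rose (5.48%) and 5 fell (6.85%), with a median of -0.01. With 1 heart left out 4 to 8 rose and 0 (without 4x0519 or 676) to 6 fell, and the median was between -0.04 and 0.03. Of 43 hnRNP and related genes 3 rose and 3 fell (median -0.03). SNRNP70, the U1 snRNP protein that is also known for a retained intron, was the exception in size. It was at 39.8, 52.8 and 67.7 CPM in June and 54.8, 114.4 and 232.9 CPM in 2018 (log2 fold change 1.27 ± 0.193, adjusted p = 2.14e-05; Yerkes 1.18, adjusted p = 0.0366, lost on leaving out any of 15 hearts, up to 0.0965). DHX16, a helicase of the spliceosome, rose by less (0.37, adjusted p = 0.00805), and HNRNPA1, a repressor of splice sites, fell by 0.49 on the log2 scale (adjusted p = 0.00361), from a median of 145.5 to 113.3 CPM. SNRNP200, the helicase that unwinds U4 from U6, fell by 0.22 (adjusted p = 0.0281), a call that leaving out any of 14 hearts removed (adjusted p up to 0.085), and that of SLU7, a second-step splicing factor, was lost on leaving out any of 8.

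The level of the retained-intron list (log2, relative to the mean heart) ran from -0.40 to -0.04 in June, with a median of -0.28, and from -0.25 to 1.24 in 2018, with a median of 0.19. Hearts of 2018 thus differed more among themselves than those of June: 15 of 21 lay above every June heart, led by 4X0354 (1.24), 529 (0.93) and Little_R (0.92), while 295, 389, 476, 503, 724 and 4X0212 lay within its range. Sarcomere levels differed between the ends of this range. The 5 highest hearts, which also include 558 and 537, had sarcomere levels between -2.42 and -0.57. The 6 within the June range had levels between 0.05 and 0.68. Hearts in between were mixed: at retained-intron levels of 0.24 and 0.28, 495 and 554_2 had sarcomere levels of -1.62 and 0.42. The part of the sarcomere genes in the difference between years was not tested. The June batches had medians of -0.25, -0.24, -0.39 and -0.28 in batches of 2, 3, 3 and 9 hearts. SR proteins followed, with 12 of 21 hearts above the June range. The count of 40 retained-intron genes became 31 without the 5 hearts of highest mitochondrial share, 23 among the 29 hearts within the RIN range of the June hearts, and 15 against the 9 hearts of the batch of 6/22/16 alone. The median was between 0.38 and 0.64 in the 15 alternatives in which it was compared. For Yerkes hearts the count of retained-intron genes was 2 without 558, and that of the SR proteins 0 without 558 or 623.

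Within 2018 the list levels moved with sequencing depth. The retained-intron level had r = -0.736 with the log2 total count (rho = -0.835, permutation p = 0.00029 and 2e-05, adjusted p = 0.00696 and 0.00048 over 24 relations), and r = -0.749 without the 2 hearts farthest in depth. Of the 6 hearts whose level was within the June range, 4 are the 4 deepest libraries. The same level had r = 0.616 with the mitochondrial share (adjusted p = 0.0256; rho = 0.499, adjusted p = 0.186; r = 0.601 without the 2 farthest), and r = 0.0152 with RIN (adjusted p = 0.95; r = -0.0533 without the 2 farthest). For SR proteins r with depth was -0.637 (adjusted p = 0.0256; rho = -0.805, adjusted p = 0.00048; r = -0.696 without the 2 farthest). In the 17 June hearts the retained-intron level had r = -0.0505 with depth. The levels, the share and the totals come from the same libraries, and what depth or mitochondrial share contributes to the difference between years was not tested.

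**Figure D2:**
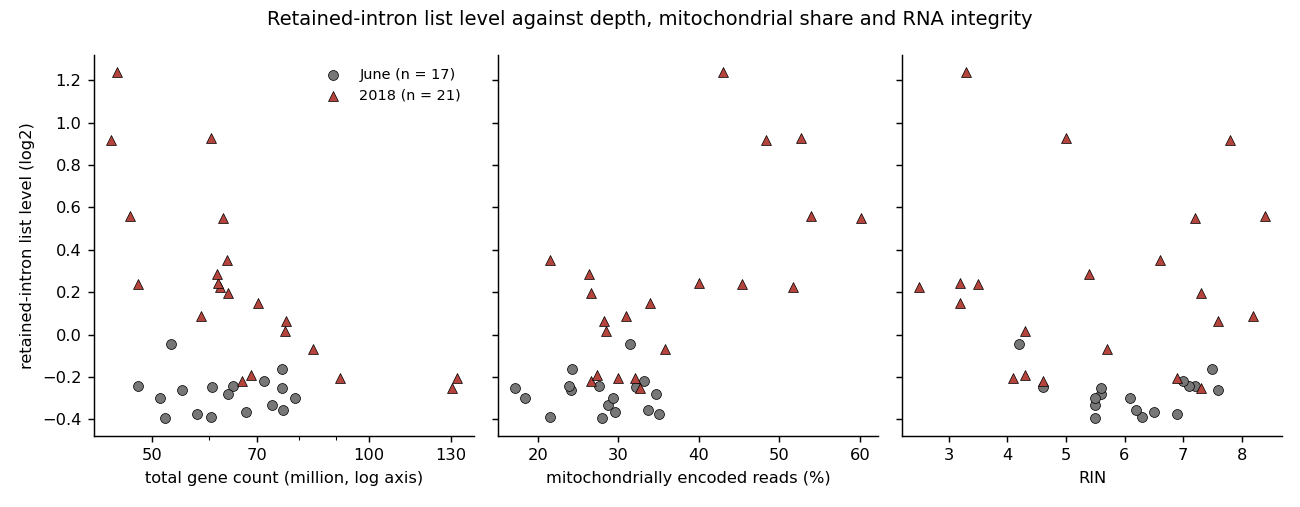
Level of the retained-intron list in each heart against the total gene count (log axis), the percent of mitochondrially encoded reads and RIN, with circles for hearts extracted in June and triangles for 2018. The 2018 hearts lie between 1.24 and -0.25 and lower at higher totals, whereas those of June stay between -0.40 and -0.04.

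Gene structure separated the called genes as well. For this, the table of counts on exons orthologous between human and chimpanzee was fitted in the same way, with 16547 genes tested, and 15123 of them have at least 2 exon blocks and hence a mean gap between blocks, a stand-in for intron length. Over all 16547 genes of this fit 2272 were called higher and 985 lower, and in the Yerkes hearts 437 and 57 of 16411. In the decile of genes with the shortest gaps (median 286 bases) 22.9% were called higher and 3.44% lower in 2018. The share called higher fell through the deciles to 5.29% in that with the longest gaps (median 22140 bases), where 6.88% were lower, and the median log2 fold change went from 0.14 to -0.10. Among Yerkes hearts the shares called higher were 6.32% and 0.466%. The median gap was 1726 bases over genes called higher, 4159 over those called lower and 3345 over those not called.

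Expression level also varied over the gap deciles, but was lower at both ends. The median was 10.3 CPM in the shortest decile, 21.8 CPM in decile 5 and 7.46 CPM in the longest. The shares were therefore also taken within tertiles of mean CPM. In the lowest tertile the share called higher fell from 28% in the quartile of shortest gaps to 12.2% in the longest, in the middle tertile from 20.4% to 5.2%, and in the highest tertile from 14.6% to 2.41%. The Yerkes hearts gave 7.84% to 1.56%, 4.67% to 0.398% and 2.41% to 0.292%. Short genes were called higher more often, too: 21.5% of the decile with the shortest exon length (median 511 bases) against 11.3% of the longest decile, and 22.2% of genes with 1 or 2 exon blocks. Short genes also had low counts (median 0.82 CPM in the shortest decile against 35.8 in the longest). These shares are descriptions over genes, which are not independent, and no test was run on them.

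**Figure D3:**
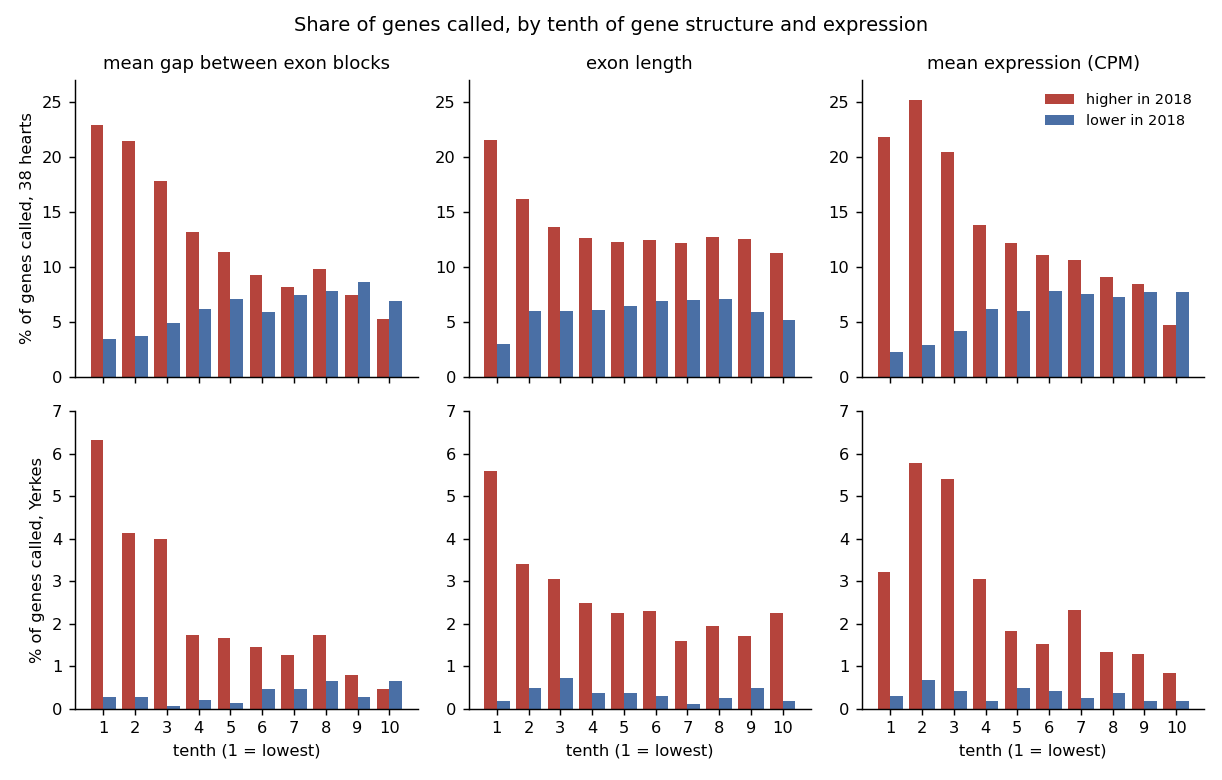
Percent of genes called higher (red) or lower (blue) in 2018 by decile of mean gap between exon blocks, exon length and mean CPM, for all hearts (top) and the Yerkes hearts (bottom, with a different vertical scale). The red bars fall from 22.9% to 5.29% across gap deciles in all hearts and from 6.32% to 0.466% in the Yerkes hearts.

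Genes without a symbol were called higher more often than named ones, 23.4% of 1255 against 10%, and 4.93% against 1.2% in the Yerkes hearts. Genes with low counts were called higher more often in general. In the fit of orthologous exons the shares were 21.8%, 25.2% and 20.4% in deciles 1 to 3 of mean CPM (lowest) and 4.72% in decile 10. Neither the share of genes without a symbol nor that of the ZNF genes below was matched for expression. Zinc-finger ZNF genes, most of them repressors with low mRNA levels, rose in 73 of 444 (16.4%, against 11.1% of all genes). In this list 5 fell (1.13%, against 4.68%), and the median was 0.09. Within Yerkes, 9 of 443 rose (2.03%, against 1.5% of all genes) and none fell. ZNF211 was at 14, 17.8 and 24.3 CPM in June and 22.8, 26.3 and 58.8 CPM in 2018 (log2 fold change 0.77 ± 0.117, adjusted p = 2.26e-05). Its years did not overlap in the Yerkes hearts, where all 12 hearts of 2018 were above the 9 of June (0.67, adjusted p = 0.0145). Such a separation was found for 9 genes higher (0.0588% of those tested) and 2 lower (0.0131%) in the Yerkes hearts, and in all hearts for 3 genes higher (0.0195%) and none lower.

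SEC31B (ENSPTRG00000002850) separated the years in both sets. It encodes a form of the outer COPII coat of vesicles that leave the endoplasmic reticulum. Its level was 4.19, 6.15 and 8.03 CPM in June and 8.32, 22.6 and 42.1 CPM in 2018, with no overlap. The log2 fold change was 1.95 ± 0.221 (adjusted p = 3.94e-07) in all hearts and 1.71 ± 0.288 (adjusted p = 0.00931) in the Yerkes hearts. In each June batch its median lay between 5.18 and 7.46 CPM. Its paralog SEC31A, the widely expressed form, fell from 103.5 to 86.2 CPM in the median (-0.26, adjusted p = 0.0436, a call that leaving out any of 26 hearts removed), and the rest of the 26 tested COPII and secretory genes were not called.

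Other genes with the smallest p-values and a symbol came from varied functions. ABCC5, an exporter of cyclic nucleotides, rose from a median of 41.4 to 83.0 CPM (1.10 ± 0.132, adjusted p = 1.3e-06; Yerkes 0.96, adjusted p = 0.00581). HSF4, a heat shock factor best known in the lens, rose from 21.3 to 54.3 CPM (1.54 ± 0.196, adjusted p = 2.17e-06), and TRPV1, the capsaicin receptor, from 1.62 to 5.29 CPM (1.94 ± 0.245, adjusted p = 2.17e-06). RGS11, which turns off G-protein signals, rose from 7.88 to 21.1 CPM (1.64 ± 0.211, adjusted p = 2.35e-06), the only one of 16 tested RGS genes that was called. Each exceeded the June range in 16 or 17 of 21 hearts of 2018. In the Yerkes hearts HSF4 (adjusted p = 0.0232, up to 0.0528 without 462, 558 or 623), TRPV1 (0.016) and RGS11 (0.0164) were called as well.

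On the lower side, LIN54, a DNA-binding subunit of the DREAM complex, was at 7.29, 9.70 and 13 CPM in June and 3.46, 6.54 and 9.53 CPM in 2018 (-0.63 ± 0.105, adjusted p = 5.66e-05). The years did not overlap in the Yerkes hearts (-0.58, adjusted p = 0.0167). CCDC107 fell by 0.73 on the log2 scale (adjusted p = 2.4e-05), with 18 of 21 hearts of 2018 below the June range, and TMA16, a ribosome biogenesis factor, by 0.66 (adjusted p = 0.000138), with 19 of 21. MZT1, a partner of the gamma-tubulin complex, fell by 0.69 (adjusted p = 0.000108), REST, the repressor of neuronal genes, by 0.38 (adjusted p = 0.000183), and GTF2A1, a subunit of TFIIA, by 0.48 (adjusted p = 0.000183). These changes are smaller than those of ABCC5, HSF4, TRPV1 and RGS11 on the higher side. Of the 10 genes with the smallest p on the lower side, FPR3, MPEG1, CCR1 and COL2A1 had larger changes (-2.39, -2.42, -2.01 and -2.14).

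**Figure D4:**
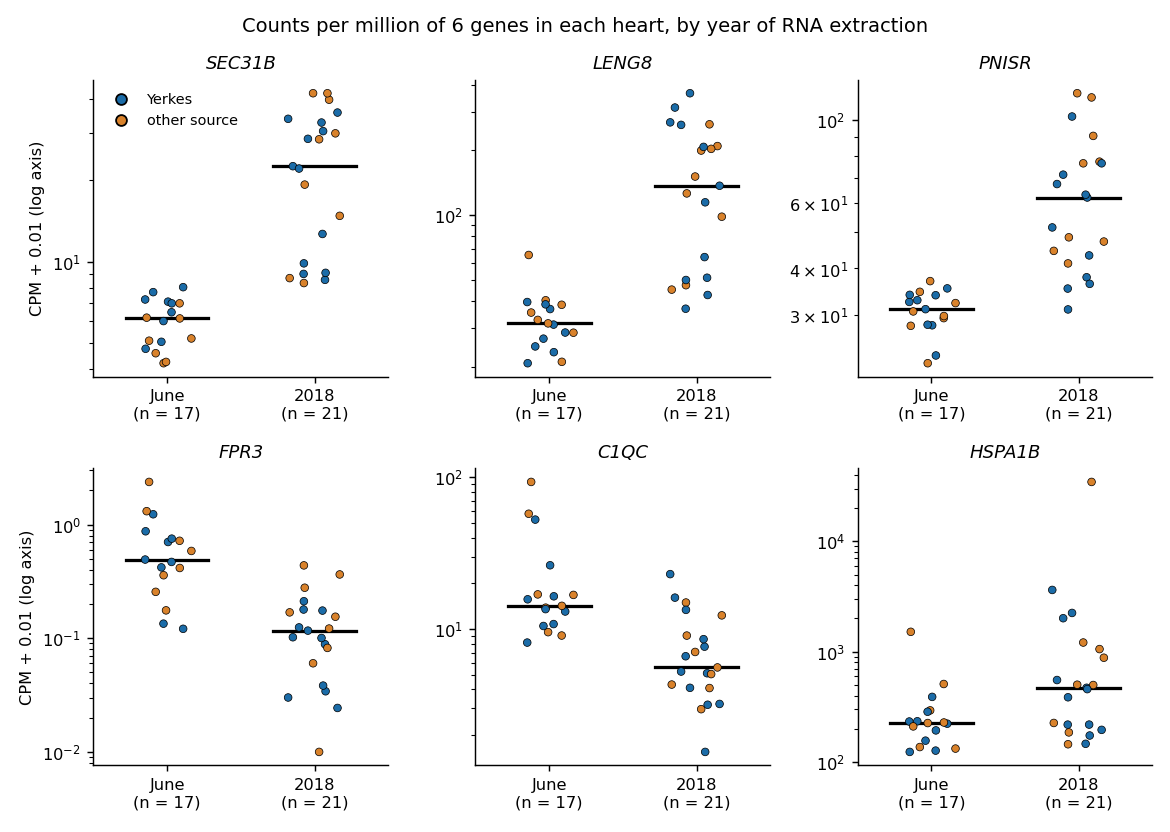
CPM (plus 0.01, log axis) of 6 genes in each heart, with points for single hearts colored by source and bars for the median of each year. SEC31B shows no overlap between years, LENG8 and PNISR overlap in a few hearts, FPR3 and C1QC are lower in 2018, and HSPA1B reaches 34560 CPM in 1 heart of 2018.

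Of the 13 genes in mitochondrial DNA, 2 rose (15.4%, against 11.1% of all genes), 9 had a positive and 4 a negative fold change, and the median was 0.65. The 4 negative ones were MT-ATP6, MT-CO3, MT-CYB and MT-ND6, which varied widely between hearts of the same year. On leaving out 1 heart at a time, MT-CYB ran from -0.57 to 0.22, and MT-ATP8, which was positive, from -1.68 to 2.02. The count of genes called was between 1 and 5 when 1 heart was left out, and none was called in the Yerkes hearts (median 0.43; 2415 of 15313 genes had an unadjusted p under 0.05 there). MT-ND4L, a subunit of complex I, was at 1939, 4640 and 7412 CPM in June and 2058, 5909 and 23080 CPM in 2018 (0.95 ± 0.28, adjusted p = 0.017; Yerkes 0.89, adjusted p = 0.191). MT-ND4 had a log2 fold change of 0.70 (adjusted p = 0.0453), which leaving out any of 19 hearts carried past the threshold. MT-CO1, the most abundant, had medians of 149900 and 199300 CPM and was not called (0.67 ± 0.247, adjusted p = 0.0568). Of 78 nuclear genes for respiratory chain subunits none was called (4703 of 15392 genes had an unadjusted p under 0.05, and the list median was -0.02), nor any of 41 genes of the TCA cycle and fatty acid oxidation (median -0.09). Of 81 mitochondrial ribosomal proteins 1 rose, and of 26 nuclear genes for mitochondrial transcription and maintenance 3 rose (11.5%). Whether the mitochondrially encoded and the nuclear genes differed in change was not tested. POLG2, the accessory subunit of the mitochondrial DNA polymerase, rose from a median of 8.15 to 12.8 CPM (1.13 ± 0.225, adjusted p = 0.000568; Yerkes 1.21, adjusted p = 0.0394, lost on leaving out any of 14 hearts), and TOP1MT, the mitochondrial topoisomerase, rose by 0.86 ± 0.219 (adjusted p = 0.00573; Yerkes adjusted p = 0.173).

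Calls among stress genes came with high values in a few hearts. Of 31 immediate early genes 6 rose (19.4%, against 11.1% of all genes) and none fell (median 0.66). None was called in the Yerkes hearts (median 0.48, and DESeq2 called 5). Their level had a median of -0.26 in June and -0.25 in 2018. In 2018, 7 hearts lay above and 6 below the June range, and the highest were 529 (3.16), Little_R (2.14) and 295 (1.99). FOSB, part of the AP-1 transcription factor, was at 0.0623, 0.638 and 7.48 CPM in June and 0.169, 0.785 and 150.6 CPM in 2018 (3.14 ± 0.817, adjusted p = 0.00674; Yerkes 2.84, adjusted p = 0.213), with 529, 295, Little_R and 476 above all June hearts. KLF2, a shear-responsive factor of endothelium, was high in more hearts, 10 of which exceeded all June hearts (medians of 52.2 and 79.4 CPM, 1.07 ± 0.239, adjusted p = 0.00179; Yerkes adjusted p = 0.0978). The count of 6 became 2 without the 5 hearts of highest mitochondrial share and 0 against the batch of 6/22/16.

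For heat shock proteins and co-chaperones 7 of 41 rose (17.1%, against 11.1% of all genes) and 1 fell, with a median of 0.27. In the Yerkes hearts none was called (median 0.22, and DESeq2 called 6 higher). HSPA1B, the inducible HSP70, was at 123.5, 225.6 and 1514 CPM in June and 144.9, 470.9 and 34560 CPM in 2018 (2.79 ± 0.735, adjusted p = 0.00733; Yerkes 1.83, adjusted p = 0.102). The highest value is that of Little_R, and 495, 529 and 558 were the other hearts above the June range. Without Little_R 2 members rose, and none without the 5 hearts of highest mitochondrial share or among hearts within the RIN range of the June hearts. Hypoxia genes were mixed, with 2 of 26 higher and 2 lower. VEGFA, the angiogenic factor, had a log2 fold change of 0.63 (adjusted p = 0.0269, and 0.068 without 4X0354), and HIF1A, the oxygen-regulated factor, -0.54 (adjusted p = 0.0252, and 0.0624 without 570). Of 23 genes of the unfolded protein response DDIT3 rose (lost on leaving out any of 11 hearts) and CANX fell (any of 23), and of 18 metallothionein and glucocorticoid response genes none was called.

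Macrophage genes held the largest share of lower calls. Of 21 tested, 12 fell and none rose, with a median log2 fold change of -0.99 against -0.01 for all genes, and in the Yerkes hearts the median was -0.94 but only CD14, the endotoxin co-receptor, was called (-1.26, adjusted p = 0.0448), and no member was called on leaving out any of 14 hearts. Since the samples are bulk tissue, fewer cells of a type and less RNA per cell cannot be told apart. C1QC, a subunit of complement C1q, was at 8.13, 14.2 and 92.9 CPM in June and 1.54, 5.58 and 23 CPM in 2018. In 2018, 14 hearts lay below the June range (-1.59 ± 0.329, adjusted p = 0.000818; Yerkes -1.26, adjusted p = 0.144). CD163, the haptoglobin-hemoglobin scavenger receptor, was at 3.19, 14.8 and 68.8 CPM and then 1.16, 4.13 and 21.4 CPM (-1.58 ± 0.379, adjusted p = 0.00352; Yerkes -1.39, adjusted p = 0.226). FOLR2, a folate receptor of resident macrophages, fell by 1.76 on the log2 scale (adjusted p = 0.00121). The count was 11 without the 5 hearts of highest mitochondrial share, 9 without the hearts with a virus note, 7 within the RIN range and 4 against the batch of 6/22/16.

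The level of this list ran from -0.61 to 2.23 in June (median 0.23) and from -1.45 to 1.11 in 2018 (median -0.58). In 2018, 10 hearts were below the lowest June heart, and hearts 4x0430, 338 and 4x523 of June were the highest. Myeloid genes outside the list were among the smallest p-values on the lower side. FPR3, a formyl peptide receptor relative, was at 0.111, 0.482 and 2.36 CPM in June and 0, 0.107 and 0.427 CPM in 2018 (-2.39 ± 0.391, adjusted p = 5.3e-05; Yerkes -2.55, adjusted p = 0.016), and MPEG1, a pore-forming protein of phagocytes, fell by 2.42 (adjusted p = 0.000107; Yerkes -1.77, adjusted p = 0.0641). CCR1, a chemokine receptor, was lower in 19 of 21 hearts than in any June heart (-2.01 ± 0.354, adjusted p = 0.000126), and the years did not overlap in the Yerkes hearts (-2.18, adjusted p = 0.0167).

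Genes of other non-muscle cells are read against the 11.1% of all genes called higher and 4.68% called lower. None of 38 fibroblast and matrix genes was called (median -0.05), and DCN, the proteoglycan that marks fibroblasts, had medians of 665 and 476 CPM (adjusted p = 0.542). Of 26 endothelial genes 4 rose (15.4%), EGFL7, a protein secreted by endothelium, with the smallest p and medians of 76.0 and 146.7 CPM (1.52 ± 0.322, adjusted p = 0.0011; Yerkes adjusted p = 0.136), whereas PECAM1, the junction protein, was not called (adjusted p = 0.656). Of 20 smooth muscle and pericyte genes 1 rose, PDGFRB (0.55, adjusted p = 0.0327, lost without 495, 537, 558 or 88A020). Of 13 adipocyte genes 3 rose (23.1%, median 0.47, and 0.04 in the Yerkes hearts with none called). CIDEC, a lipid droplet protein, stood at 54.1 CPM in 4X0267 and 22.1 in 389 against medians of 0.25 and 0.32 CPM, and without either heart its call was lost (adjusted p up to 0.79) and 1 adipocyte gene was called. Lymphocyte, nerve and red cell lists held 1 call each among 24, 16 and 5 genes, in that order: CD4 and NCAM1 fell and EPB42 rose. Of 12 neutrophil and monocyte genes 2 fell (16.7%), LYZ among them. The call of NCAM1 was lost on leaving out any of 7 hearts (adjusted p up to 0.0769). The lymphocyte list had a median of -0.45 in all hearts and 0.63 in the Yerkes hearts, and between -0.87 and 0.20 in all hearts when 1 heart was left out. The defining markers HBB and S100A8 were not called in either set.

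Of 37 sarcomere genes 1 rose (2.7%) and 3 fell (8.11%, against 4.68% of all genes), with a median of -0.25, and none was called lower without June heart 549. The defining genes MYH7 and TNNT2, the slow myosin and cardiac troponin T, were not called (adjusted p = 0.74 and 0.891). Of 26 calcium handling and channel genes 1 fell, and none of 18 cardiac transcription factors was called. The sarcomere level was lowest in Little_R (-2.42), 537 (-1.82) and 495 (-1.62), all of 2018. CAPN3, a muscle protease, rose from a median of 7.05 to 19.95 CPM (1.37 ± 0.265, adjusted p = 0.000394; Yerkes 1.495, adjusted p = 0.0388, lost on leaving out any of 15 hearts). SLN, MYL7 and MYL4 are atrial genes, and were high in June heart 549, where MYL7 was at 6716 CPM and MYL4 at 3623 CPM while MYH7 was at 343.6 CPM. Without 549, MYL7 had a log2 fold change of -0.75 (adjusted p = 0.394), MYL4 -0.08 (adjusted p = 0.903) and SLN -1.56 (adjusted p = 0.0139), against -2.02, -2.02 and -3.37 with it. The MYL4 call in all hearts was lost on leaving out any of 9 hearts, and the SLN call in the Yerkes hearts on leaving out any of 6.

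Genes for protein synthesis and turnover were near the median or below it. Of 76 cytosolic ribosomal proteins 2 rose and 1 fell (median -0.02). Of 42 translation factors 5 fell and none rose (median -0.24), such as EIF3L, a subunit of the initiation factor eIF3, with medians of 129.7 and 112.8 CPM (-0.39 ± 0.114, adjusted p = 0.017), and 4 of 46 proteasome genes fell (median -0.13). On leaving out 1 heart the calls of PSMD12 (any of 15 hearts) and PSMF1 (any of 7) among the proteasome genes and of RPL34 (any of 7), a ribosomal gene that rose, were lost. RNA decay genes held 2 lower calls of 42, XRN2 (lost on leaving out any of 7 hearts) and UPF2 (any of 19), and 1 of 19 tested replication-dependent histones fell, H2BC4, whose call was lost without 338, 549, 570 or 623. None of these genes was called in the Yerkes hearts.

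**Figure D5:**
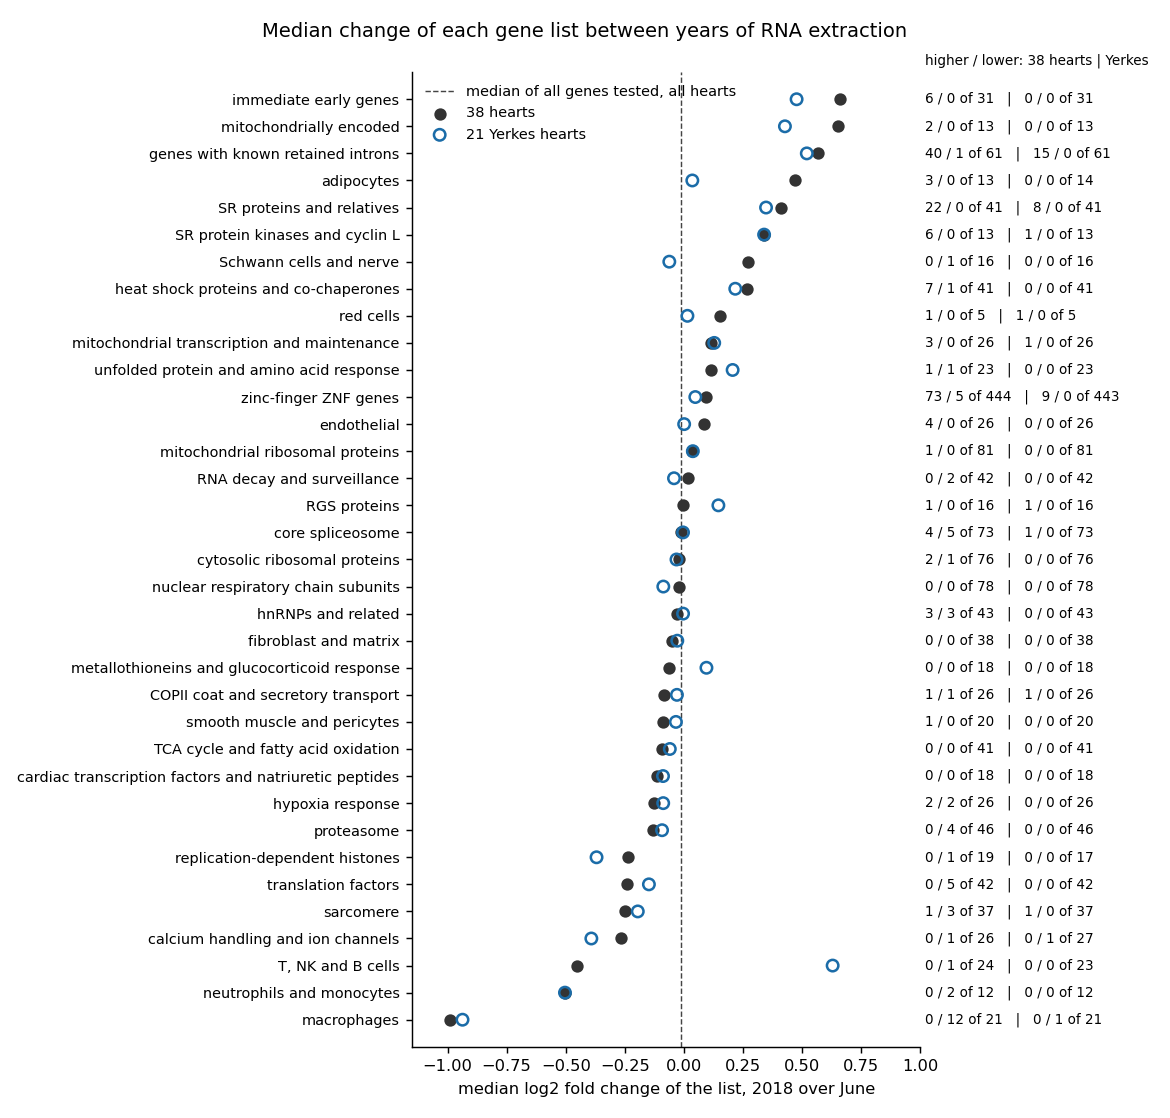
Median log2 fold change (2018 over June) of 35 gene lists in all 38 hearts (filled) and in the 21 Yerkes hearts (open), with the number of members called higher and lower beside each and a dashed line at the median of all genes tested. The immediate early (0.66), mitochondrially encoded (0.65) and retained-intron (0.57) lists lie highest in all hearts, the T, NK and B cell list (0.63) lies highest in the Yerkes hearts and on the other side in all hearts (-0.45), and the macrophage list lies lowest in both.

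The effect of year was also compared between Yerkes and other hearts in 1 model. No gene of 15392 had a difference in effect at an adjusted p under 0.05 (0%; 561 at an unadjusted p under 0.05; DESeq2 called 0, with 668). The smallest p was that of MS4A1, a B cell marker (4.14e-05, adjusted p = 0.637). With 12 and 9 Yerkes hearts against 9 and 8 others, the absence of calls does not show that the effect is alike in both sources. Of the 9 other hearts of 2018, 8 carry a virus note. Among the 4 June batches no gene of 16692 was called by edgeR (0%; 394 at an unadjusted p under 0.05), and 7 were called by a DESeq2 likelihood ratio test. With 2 to 9 hearts a batch, this does not show that the June batches are alike.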

How the data were processed

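The authors deposited 2 tables of raw counts used here. The gene count table holds the count of each of 31373 annotated genes in each heart, made by the authors with STAR on the assembly Pan_tro_3.0 with Ensembl annotation. The orthologous exon count table holds 44125 genes, which the authors counted with featureCounts 1.6.3, and its deposited length column gives the exon length of each gene in bases. The submitters' processing notes name STAR 2.6.1b. The strand setting is not given in the sources used here. A quantile normalized score matrix and the human table were not used, and 52 per-sample columns matched no sample of this series.

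Symbols were found for 18040 of the 31373 identifiers and 17950 were used. Genes were filtered by edgeR's filterByExpr and tested with edgeR 4.0.16 (TMM scaling, quasi-likelihood test, sex as covariate, Benjamini-Hochberg adjustment, threshold 0.05) in R 4.3.3. Alternatives used limma 3.58.1 and DESeq2 1.42.0. Values of single hearts are TMM-scaled CPM, and list levels use log2(CPM + 0.5). Totals, shares, RIN and correlations were tested by two-sided permutation with scipy 1.17.1 (100000 resamples, exact within Yerkes), and p-values measure the spread between hearts. Total counts set the counting error and also enter the filter and the scaling to CPM. Figures were drawn with matplotlib 3.10.9. The steps were tested on simulated data.

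The members and the 36 gene lists were chosen with earlier results of these data known. Only 1 gene of the list of nuclear noncoding RNAs and snoRNA hosts was tested, and it was not called. Lists are described by counts and medians with no set test. Named genes were those with a symbol among the 10 smallest p-values in each direction in either set of hearts, the 2 members of each list with the smallest p in each direction among those called, the 13 mitochondrially encoded genes and 10 defining markers. Other named genes were chosen after their values were seen. GC content was not used here.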

Additional observations from a re-analysis of the deposited data

Results flagged for a closer look

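In the 9 Yerkes hearts of June 145 values were searched for a heart far from the others, by Dixon's test at its 95% level, and 16 stood out. The values were list levels, gene values (log2 CPM), total count, mitochondrial share, share of the 10 highest genes, number of genes detected, RIN and age. All that stood out were list levels or gene values. Chance alone marks about 1 in 20 such groups. Groups of more than 10 hearts were not searched. Heart 549 held 5 of them, with the lowest MYH7 (8.43) and the highest MYL7 (12.7), MYL4 (11.8), SLN (6.55) and TSPAN7 (5.20), that is low ventricular myosin beside high atrial light chains and sarcolipin. Heart 570 held the highest HIF1A (7.11), TMA16 (3.57) and unfolded protein response level (0.244), and the lowest FABP4 (5.99), KLF2 (4.38) and level of the list of nuclear noncoding RNAs (-2.38, from its 1 tested gene). Heart 338 was highest for the macrophage level (2.01), the neutrophil level (1.78) and CCR1 (1.01). Heart 522 had the lowest COL2A1 (-0.84) and heart 456 the highest DHX16 (5.29).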

How the results depend on the processing

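Among the results compared across the alternatives, no called one turned its direction. The 2433 genes called were not all followed in this way. The median of the retained-intron list was compared in 15 alternatives for all hearts and 11 for the Yerkes hearts. In all hearts the 2433 genes called (1713 higher, 720 lower) became 3727 (3144 higher) with no filter beyond 1 count, 1318 (889 higher, 429 lower) without the 5 hearts of highest mitochondrial share, 634 (518, 116) for 2018 hearts within the RIN range of the June hearts, 730 (592, 138) with the batch of 6/22/16 as the June side and 1187 (984, 203) at an adjusted p under 0.01. Genes higher numbered 1068 with limma-voom, and genes lower 478 at a minimum of 6 CPM and 355 without the hearts with a virus note. With no filter 84.4% of called genes were higher. Without 537 and Little_R there were 1990 calls (1420 higher, 570 lower). In the Yerkes hearts the 248 calls (230 higher, 18 lower) became 819 (665, 154) with DESeq2, 29 (22, 7) with limma-voom, 93 (88, 5) with totals without mitochondrial genes, 88 (84, 4) with orthologous exon totals, 494 (437, 57) with orthologous exon counts, 388 (351, 37) with no sex term, 129 (120, 9) without 537, 35 (25, 10) without the hearts of highest mitochondrial share, 0 (0, 0) within the RIN range (edgeR, with 1025 genes at an unadjusted p under 0.05) and 10 (10, 0) at 0.01. The Yerkes calls higher were 81.2% of the total with DESeq2 and 75.9% with limma-voom, against 92.7%. The June batches gave 7 calls with DESeq2. The mitochondrial share differed by 7.32 points without 537 and Little_R (adjusted p = 0.0515). Fewer hearts entered several of these fits, and for the others the cause was not tested.

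Leaving out 1 heart at a time, chosen as an alternative after seeing the data, gave 2046 to 2800 calls in all hearts, 1509 to 2032 higher and 441 (without 4x0519) to 841 lower. In the Yerkes hearts it gave 36 (without 558) to 410 (without 476) calls, 31 to 375 higher and 3 to 35 lower, and 15 of the 21 omissions moved the count of calls by over 1.5 times. No paired analysis was possible because the labels give no replicate numbers that pair hearts of the 2 years.

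One limit is the design: extraction date, library preparation and earlier publication coincide, and the hearts differ in source, virus notes and RIN. Counting error is small for the abundant genes, but genes under 1 CPM, such as FPR3, rest on few reads. What depth contributes to the difference between years was not tested. Gene structure came from orthologous exon blocks, not from full gene models.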

Other observations

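MT-ATP6, MT-CO3 and MT-ND6, which encode subunits of ATP synthase, cytochrome oxidase and complex I, split the hearts in a way that did not follow the year. MT-ATP6 was above 1000 CPM in 15 of 38 hearts and under 150 CPM in 22. The hearts above 1000 CPM were 7 of 17 in June and 8 of 21 in 2018. MT-CO3 was likewise above 1000 CPM in 15 hearts and under 150 CPM in 23, and MT-ND6 in 13 and 23. In 13 hearts all 3 genes were above 1000 CPM, and in 15 at least 1 was. Fold changes between years of these genes have wide errors for this reason (MT-ATP6 -0.09 ± 1.24, adjusted p = 0.968; Yerkes -5.10 ± 2.81, adjusted p = 0.387). The cause of the split was not tested, and these genes were chosen for it after their values were seen.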
